A study of Mus musculus with 4 samples.

Results

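The 10 genes described here were higher in Dcaf13-deleted than in control mouse oocytes at both stages of oocyte growth that were sampled: Krt73, Baiap2l2, C1qtnf4, Cbfa2t3, Gtsf1l, Mfhas1, Npdc1, Nr2e3, Pls3 and Pomc. They are 10 of the 23235 genes in the table, and they were chosen from the measured values, so their difference between deletion and control is a description here and not a finding. The rule asked for log2(FPKM + 1) at least 1 higher in deletion than in control in growing and again in fully grown oocytes, after the symbols had been paired with the value rows in another sort order. FPKM is the number of fragments of a gene divided by its transcript length and by all mapped fragments of the library. With the added condition that 1 of the 2 libraries compared reach 5 FPKM at each stage (the FPKM condition), 17 genes met the rule, which is 0.237% of the 7188 genes that could. The same condition was met in the lower direction by 24 genes (0.334%). How the 10 were picked among the 17 is not stated.

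Polyadenylated RNA was measured in 4 groups, each with 1 library of 10 oocytes from C57B6 mice. The deletion groups carried Dcaf13 fl/fl alleles and Gdf9-Cre, a transgene in which an oocyte promoter drives Cre recombinase from early follicles on. The control groups carried the same floxed alleles and no Cre, so the deletion and the presence of Cre cannot be told apart. Growing oocytes of both genotypes came from females about 14 days old without hormone. Fully grown oocytes of both genotypes came from females about 23 days old, 48 h after 5 IU of PMSG, a gonadotropin that stimulates follicles, so stage, age and hormone cannot be told apart either. With 1 library per group there is no estimate of error for any value or difference, and no test was run. How many animals gave the oocytes of a library is not stated.

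The Dcaf13 protein acts in the nucleolus in ribosome assembly and also brings substrates to a CRL4 ubiquitin ligase. Growing oocytes transcribe and store the messenger RNA that carries them through meiosis and the first divisions, and transcription stops as they reach full size. Most of the 10 genes are best known from other tissues. Pomc encodes the precursor of the pituitary hormone ACTH, of the melanocortins and of beta-endorphin, Nr2e3 is a nuclear receptor of photoreceptors, and Krt73 is a keratin of the hair follicle's inner root sheath.

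Dcaf13 itself, the check of the labels, stood at 38.9 FPKM in growing deletion oocytes, against 96.1 FPKM in growing control oocytes. In fully grown oocytes it stood at 64.0 FPKM in the deletion library and at 160.2 FPKM in the control library. Both deletion libraries thus held about 40% of their control, 40.5% and 39.95%, while loss of the floxed exons cannot be read from a value of the whole gene. All 12 oocyte markers, among them Zp3 and Gdf9, were at 1 FPKM or more in all 4 libraries, with medians from 1932 to 2264 FPKM. Summed FPKM lay between 649397 and 678437, genes at 1 FPKM or more numbered between 10469 and 11048, and relative depth read from low genes lay between 1 and 1.10. In 10 pooled oocytes, fewer cells of a type and less RNA per cell cannot be told apart.

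RefSeq promoter windows on build GRCm38.p6, from 250 bases before to 50 bases after a transcript start, were matched by symbol for 7 of the 10 genes, all but Baiap2l2, C1qtnf4 and Mfhas1, as 10 windows. The 250 bases before the start of 4 of them are shown as examples of how these windows differ, with and without a TATA box and with few or more CpG pairs. Capitals mark matches on either strand to TATAAA, the TATA box, to CCAAT, the CAAT box, to GGGCGG, the GC box, and to AAGTCA, the hexamer that the NR2E3 protein binds.

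Krt73, chr15:101802361-101802610, minus strand: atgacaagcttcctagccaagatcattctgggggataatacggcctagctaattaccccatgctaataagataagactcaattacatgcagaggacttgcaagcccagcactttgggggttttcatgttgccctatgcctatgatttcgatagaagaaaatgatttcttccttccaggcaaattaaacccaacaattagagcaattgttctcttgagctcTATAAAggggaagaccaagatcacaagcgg
Gtsf1l, chr2:163089602-163089851, minus strand: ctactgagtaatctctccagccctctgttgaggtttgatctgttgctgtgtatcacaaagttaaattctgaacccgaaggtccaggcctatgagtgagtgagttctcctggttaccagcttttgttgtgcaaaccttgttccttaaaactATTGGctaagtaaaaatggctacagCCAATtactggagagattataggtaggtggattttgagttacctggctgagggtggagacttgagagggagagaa
Npdc1, chr2:25402800-25403049, plus strand: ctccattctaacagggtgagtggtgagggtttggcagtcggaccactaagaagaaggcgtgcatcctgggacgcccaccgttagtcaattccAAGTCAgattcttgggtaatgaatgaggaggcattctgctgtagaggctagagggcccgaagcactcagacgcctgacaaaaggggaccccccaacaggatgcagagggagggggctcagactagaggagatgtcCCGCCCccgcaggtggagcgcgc
Pomc, chr12:3954695-3954944, plus strand: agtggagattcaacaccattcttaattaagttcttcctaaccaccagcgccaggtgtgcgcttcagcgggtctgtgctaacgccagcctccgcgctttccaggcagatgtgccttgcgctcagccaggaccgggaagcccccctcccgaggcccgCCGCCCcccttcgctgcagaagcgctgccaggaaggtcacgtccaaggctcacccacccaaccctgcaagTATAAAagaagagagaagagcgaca

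Krt73 and Pomc each had a TATAAA match, starting 30 and 25 bases before the start. Gtsf1l had a pair of CCAAT matches, at 100 and 75 bases before the start, and Npdc1 a GGGCGG match at 23 and an AAGTCA match at 158. The windows differed widely in CpG pairs over their 300 bases, with 2 in Gtsf1l, 4 in Krt73, 15 in Npdc1, 18 in Pomc and 53 in one window of Cbfa2t3. No motif was common to all 7 genes. TATAAA was in 2 of the 10 windows and in 13.6% of all 32851 windows of the same length, CCAAT in 4 and in 37.4%, GGGCGG in 6 and in 35.7%, and AAGTCA in 3 and in 15.1%. The broader E-box pattern CANNTG, not marked above, was in 9 of the 10 windows and in 72.3% of all, while its form CACGTG, which every CANNTG count includes, was in 0 of the 10 and in 7.15% of all. Several windows belong to 1 gene and overlap, so the 10 are not independent, and in Cbfa2t3 a CCAAT match overlaps a GGGCGG match. A match says only that these letters stand in the window.

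**Figure D1:**
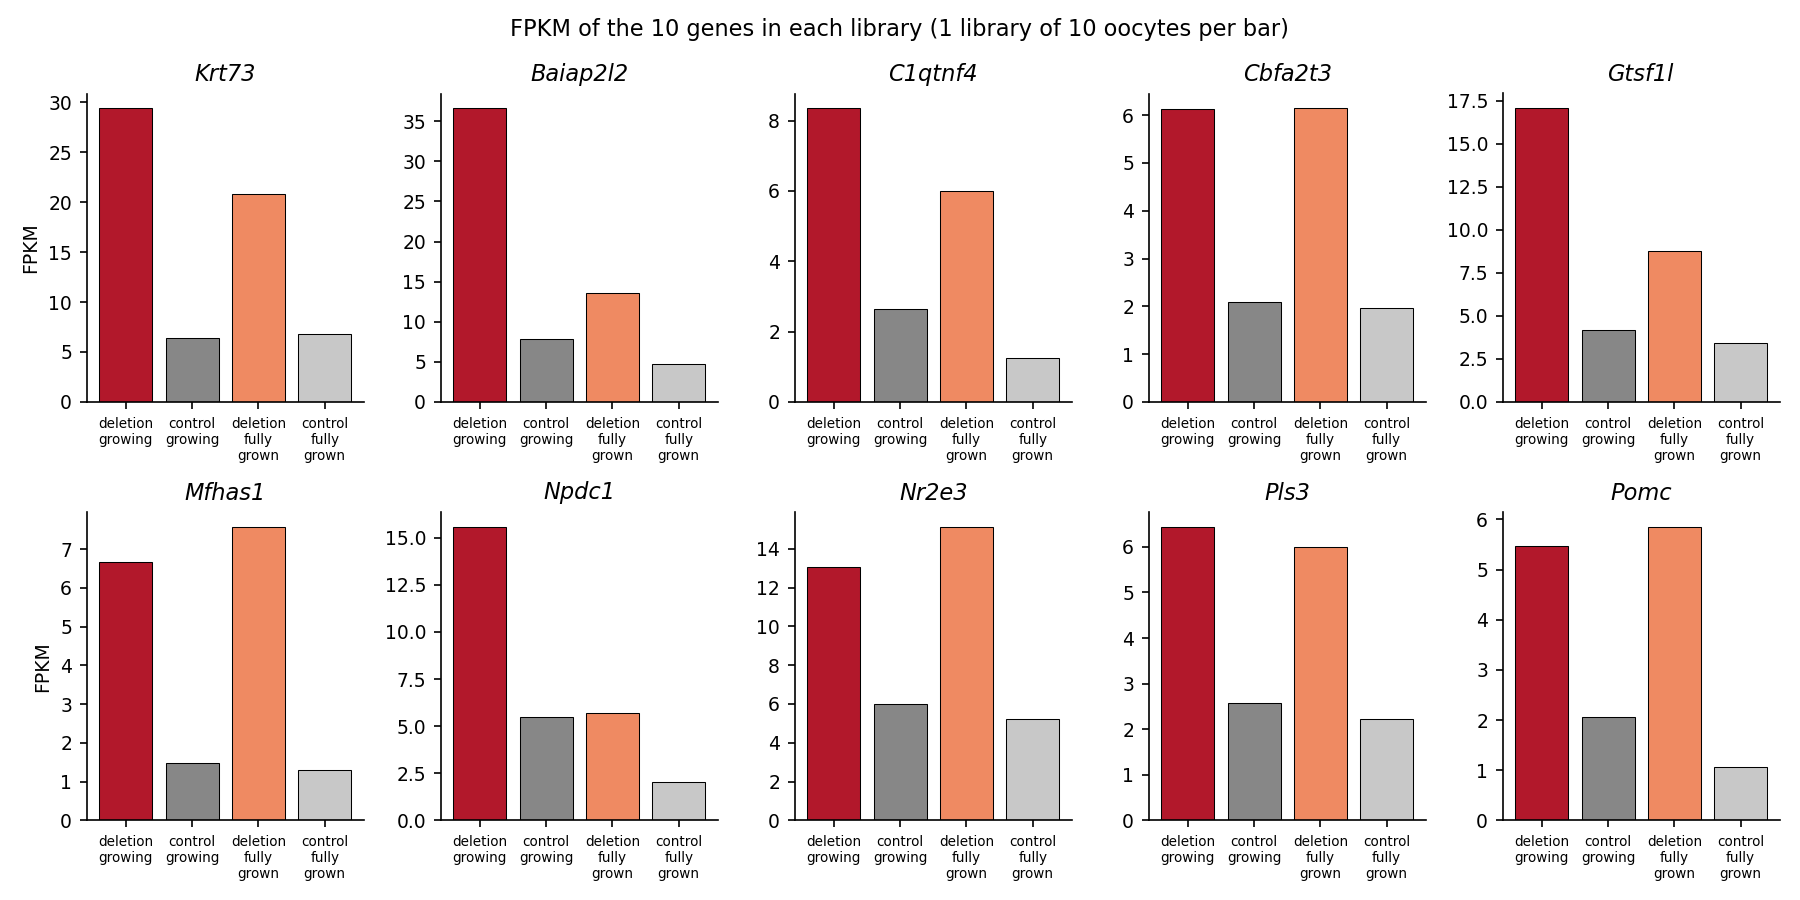
FPKM of each of the 10 genes (vertical axis, from 0, with its own scale per gene) in the growing deletion, growing control, fully grown deletion and fully grown control libraries, 1 bar per library of 10 oocytes and no error bars. In every panel both deletion bars stand above both control bars, from Baiap2l2 at 36.6 FPKM in growing deletion oocytes down to Pomc at 1.06 FPKM in fully grown control oocytes.

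The hormone and secreted factor genes were low in control and moderate in deletion oocytes. Pomc (chromosome 12, plus strand, 3954951 to 3960618, mm9, as are all gene coordinates) stood at 5.46 FPKM in growing deletion oocytes against 2.07 FPKM in growing control oocytes, and at 5.85 FPKM in fully grown deletion oocytes against 1.06 FPKM in fully grown control oocytes. Both deletion libraries were alike and well above both controls, and the fully grown control was the lowest of the 4. The ratio of deletion to control was 2.64 in growing and 5.51 in fully grown oocytes, and the changes in log2(FPKM + 1) were 1.07 and 1.73. The fully grown control value was near the floor of what was read as detected, at percentile 1.06 of the genes at 1 FPKM or more in that library. C1qtnf4 (chromosome 2, plus strand, 90725943 to 90730683) encodes a secreted protein with C1q domains that lowers food intake in mice. It stood at 8.35 FPKM in growing deletion oocytes against 2.65 FPKM in growing control oocytes, and at 6.0 FPKM in fully grown deletion oocytes against 1.24 FPKM in fully grown control oocytes. The lower deletion value was above the higher control value, and within each genotype the growing library was the higher one. The ratios were 3.15 and 4.82, with changes of 1.36 in growing and 1.64 in fully grown oocytes.

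Among the regulators of transcription, Nr2e3 (chromosome 9, minus strand, 59790578 to 59797886) stood at 13.1 FPKM in growing deletion oocytes against 5.98 FPKM in growing control oocytes. In fully grown oocytes its values were 15.1 FPKM in the deletion library and 5.22 FPKM in the control library. The 2 controls were close to each other, and so were the 2 deletion libraries, at between 2.18 and 2.90 times their controls. Its change of 1.01 in growing oocytes was the smallest of the 10 genes at that stage, and that in fully grown oocytes was 1.38. Cbfa2t3 (chromosome 8, minus strand, 125149036 to 125202075) encodes a corepressor of the ETO family, which brings histone deacetylases to DNA-bound factors. It stood at 6.13 FPKM in growing deletion oocytes against 2.09 FPKM in growing control oocytes, and at 6.14 FPKM in fully grown deletion oocytes against 1.97 FPKM in fully grown control oocytes. Its level hardly differed with stage in either genotype, and its changes with deletion were 1.21 and 1.27. Npdc1 (chromosome 2, plus strand, 25258603 to 25265014), a neural gene whose product binds E2F1 and slows proliferation of cultured mouse cells, stood at 15.6 FPKM in growing deletion oocytes against 5.47 FPKM in growing control oocytes. In fully grown oocytes it stood at 5.68 FPKM in the deletion library and 2.06 FPKM in the control library. Here the fully grown deletion value lay only just above the growing control value, and the groups of 2 did not overlap by that margin. The changes at matched stages were 1.36 in growing and 1.13 in fully grown oocytes.

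The genes of the cytoskeleton and of cell shape held both of the highest levels. Baiap2l2 (chromosome 15, minus strand, 79088625 to 79115939) encodes a membrane-binding I-BAR domain protein of epithelial cells. It stood at 36.6 FPKM in growing deletion oocytes against 7.83 FPKM in growing control oocytes, and at 13.6 FPKM in fully grown deletion oocytes against 4.68 FPKM in fully grown control oocytes. The growing deletion library stood far above the other 3, and the ratios were 4.68 in growing and 2.91 in fully grown oocytes, with changes of 2.09 and 1.36. Krt73 (chromosome 15, minus strand, 101623739 to 101632763) stood at 29.4 FPKM in growing deletion oocytes against 6.42 FPKM in growing control oocytes, and at 20.8 FPKM in fully grown deletion oocytes against 6.76 FPKM in fully grown control oocytes. The controls were nearly equal and both deletion libraries were at least 3 times as high, with changes of 2.03 and 1.49. Pls3 (chromosome X, minus strand, 73030993 to 73088289) encodes plastin 3, which bundles actin filaments. It stood at 6.44 FPKM in growing deletion oocytes against 2.57 FPKM in growing control oocytes, and at 6.0 FPKM in fully grown deletion oocytes against 2.23 FPKM in fully grown control oocytes. Within each genotype the stages were close, and the changes with deletion were 1.06 and 1.12, the second being the smallest of the 10 genes in fully grown oocytes.

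Gtsf1l (chromosome 2, minus strand, 162912767 to 162915337) is a paralog of Gtsf1, a zinc finger gene of germ cells that acts in the PIWI small RNA pathway of the mouse testis. It stood at 17.1 FPKM in growing deletion oocytes against 4.19 FPKM in growing control oocytes, and at 8.76 FPKM in fully grown deletion oocytes against 3.44 FPKM in fully grown control oocytes. Both deletion values were above both controls, and the growing one was about 4 times its control, with changes of 1.80 and 1.14. Mfhas1 (chromosome 8, plus strand, 36650852 to 36742503) encodes a leucine-rich repeat protein of the ROCO family that acts in Toll-like receptor signalling. It stood at 6.67 FPKM in growing deletion oocytes against 1.48 FPKM in growing control oocytes, and at 7.58 FPKM in fully grown deletion oocytes against 1.30 FPKM in fully grown control oocytes. Both controls were near 1 FPKM, and the ratio of 5.83 in fully grown oocytes was the highest of the 10 genes at that stage. Its changes were 1.63 in growing and 1.90 in fully grown oocytes. The antisense gene Gm16793 overlaps Mfhas1 by 1223 bases and was listed at 0 in all 4 libraries.

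Across the 10 genes the median level was 10.7 FPKM in growing deletion oocytes against 3.42 FPKM in growing control oocytes, and 6.86 FPKM in fully grown deletion oocytes against 2.14 FPKM in fully grown control oocytes. All 10 were at 5 FPKM or more in both deletion libraries, and 6 were under 5 FPKM in both control libraries. These 6 passed the FPKM condition at both stages through the deletion libraries alone. Baiap2l2 and Npdc1 did so in fully grown oocytes, where their controls stood at 4.68 and 2.06 FPKM. Among genes at 1 FPKM or more in the same library, the median percentile of the 10 was 48.6 in growing deletion oocytes and 22.9 in growing control oocytes. In fully grown oocytes it was 39.1 in the deletion library and 14.8 in the control library. The lowest deletion value was above the highest control value in 10 of 10 genes, an order that the rule favours. The size condition means a change of at least 1 with the FPKM condition met. Per stage, the share of all genes higher by the size condition was 2.62% of 8010 in growing oocytes (210 genes) and 1.08% of 7413 in fully grown oocytes (80 genes). The median change was 1.36 for the 10 genes and 0.08 for all genes in growing oocytes, and 1.37 for the 10 genes and 0.04 for all genes in fully grown oocytes. Krt73, Baiap2l2, Gtsf1l and Npdc1 had the larger change in growing oocytes and the other 6 had it in fully grown oocytes. The widest differences between the stages were those of Baiap2l2, 0.73 larger in growing, and of Pomc, 0.66 larger in fully grown oocytes.

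**Figure D2:**
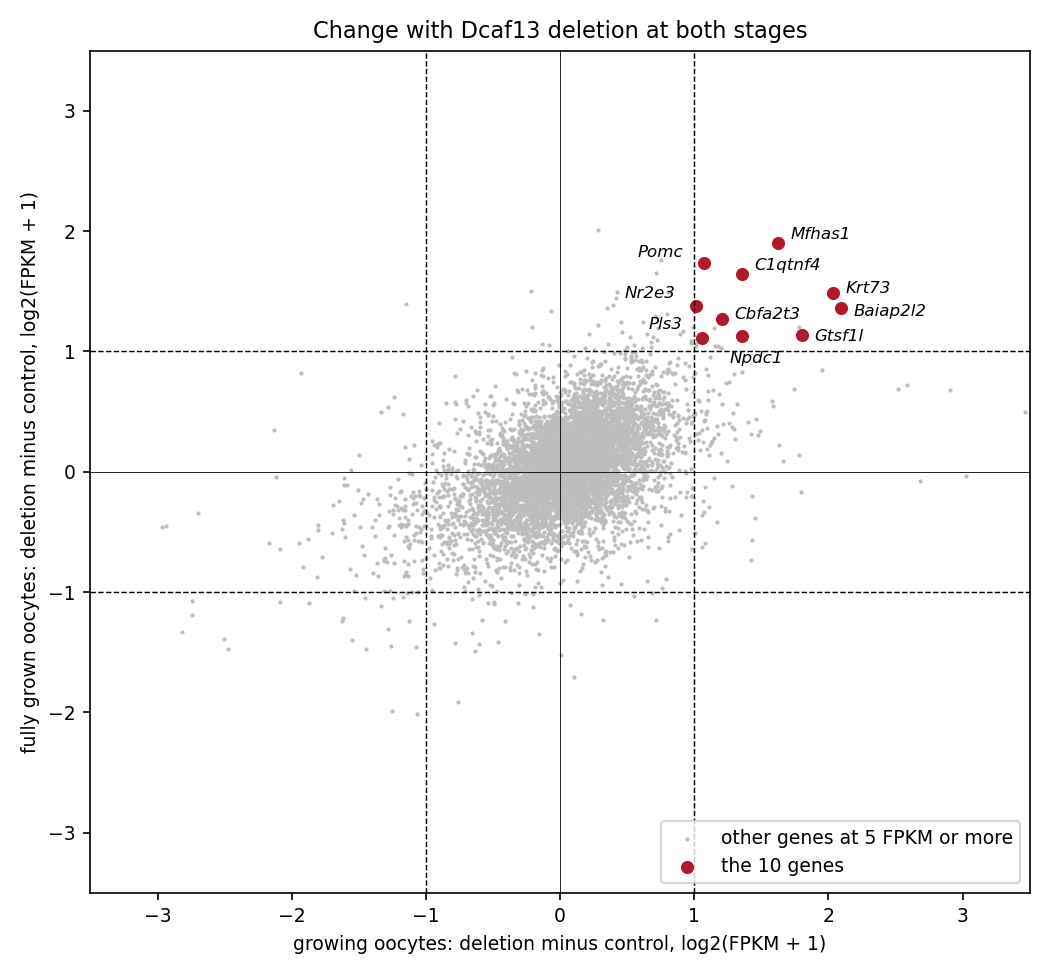
Change in log2(FPKM + 1), deletion minus control, in growing oocytes (horizontal axis) and in fully grown oocytes (vertical axis) for the 7188 genes at 5 FPKM or more in 1 library of each comparison, with the 10 genes in red and dashed lines at 1 and -1. The 10 genes lie in the upper right corner that the rule selects, between 1.01 and 2.09 in growing and between 1.12 and 1.90 in fully grown oocytes, and 8 genes outside the axes are not drawn.

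The other 7 genes that met the rule at the FPKM condition were 2300009A05Rik, 2810405K02Rik, Cox8c, Hist1h1a, Riiad1, Rpl34 and Tysnd1. Their changes lay between 1.01 and 1.78 in growing and between 1.03 and 1.20 in fully grown oocytes. Rpl34, a ribosomal protein gene, was the most abundant of them, at 195.6 FPKM in growing deletion oocytes against 88.0 FPKM in growing control oocytes, and its row overlaps the pseudogene Rpl34-ps1. Riiad1 had the lowest control values of the 7, at 1.47 and 1.64 FPKM. As a group these 7 were more abundant than the 10, with a median of 36.5 FPKM in growing deletion oocytes and of 17.6 FPKM in growing control oocytes. By its smaller change, each of Nr2e3 (1.01), Pls3 (1.06) and Pomc (1.07) was closest inside the threshold among the 10 genes. Among the other 7, Hist1h1a (1.01), Tysnd1 (1.01) and 2300009A05Rik (1.03) were closest. The genes closest outside the threshold were Chac2 (0.99), Mir680-2 (0.98), Zmynd10 (0.98), Rgs19 (0.97) and Mtap1s (0.96). Mir680-2 was listed at 0 in fully grown control oocytes, and Chac2 overlaps Asb3 on the other strand.

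With age from about 14 to 23 days and the hormone, the 10 genes were on both sides of 0 in deletion oocytes and mostly below it in control oocytes. In deletion oocytes, fully grown minus growing, 6 of the 10 were below 0, with a median of -0.25, beside 3769 of the 7188 genes at the FPKM condition at both stages. After subtraction of a trend on GC content and length, the median of the 10 in deletion oocytes was 0.053. In control oocytes 9 of the 10 were below 0, with a median of -0.20, beside 3952 of the 7188 genes. Krt73 was the exception in control oocytes, at 0.06, and 3 of the 10 were above 0 there after subtraction of the trend. The medians over all genes were -0.07 in deletion and -0.06 in control oocytes. Scaling each library by its median ratio moved these 2 medians over all genes by more than 0.1, to 0.08 in both genotypes, and the medians of the 10 genes to -0.12 in deletion and -0.09 in control oocytes. By the size condition, Baiap2l2 (-1.36) and Npdc1 (-1.31) were lower in fully grown deletion oocytes, 2 of the 10 against 8.75% of all genes. In control oocytes only Npdc1 (-1.08) was, 1 of the 10 against 3.07% of all genes, and after median-ratio scaling it stood at -0.98. The largest gaps between the genotypes in this comparison were those of Baiap2l2, at -1.36 in deletion and -0.64 in control oocytes, of Gtsf1l, at -0.89 in deletion and -0.23 in control oocytes, and of Pomc, at 0.09 in deletion and -0.57 in control oocytes. These values use the same 4 libraries as the comparisons by genotype, so they restate the same differences by another route.

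**Figure D3:**
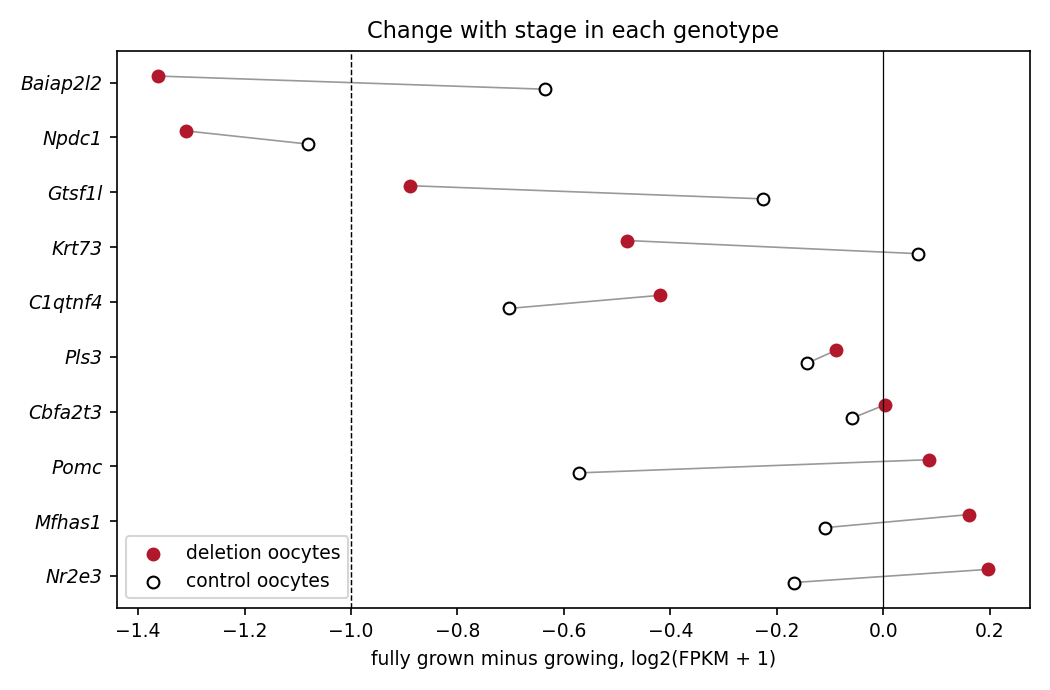
Fully grown minus growing in log2(FPKM + 1) (horizontal axis) for each of the 10 genes, with filled points for deletion and open points for control oocytes, 1 library per group, and a dashed line at -1. Baiap2l2 and Npdc1 lie furthest to the left in deletion oocytes, at -1.36 and -1.31, and Krt73 is the only gene right of 0 in control oocytes.

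The 10 genes lie on chromosomes 2, 8, 9, 12, 15 and X, with 3 on chromosome 2, 2 on chromosome 8 and 2 on chromosome 15. The nearest gene at 1 FPKM or more on each side was read for each of them, 20 neighbours in all. Of those at the FPKM condition, none was past the size condition in growing oocytes. In fully grown oocytes 1 was, 4930468A15Rik, at -1.42 and 739.7 kb from Pls3. Among all genes, 2.62% were higher and 2.51% lower in growing oocytes, and 1.08% and 1.09% in fully grown oocytes. The neighbours Krt72-ps, Acsf3, Abca2, Myo9a, Gm7616 and Efr3b were under 5 FPKM in every library and could not be counted. Krt76 and Mtch2 could not be counted in growing oocytes, nor could Pick1 and Entpd2 in fully grown oocytes. The median change of the neighbours was 0.08 in growing and 0.06 in fully grown oocytes. Pabpn1l, 2.40 kb from Cbfa2t3, stood at 147 FPKM in growing deletion oocytes against 161.6 FPKM in growing control oocytes, and Mybl2, 2.34 kb from Gtsf1l, at 79.1 FPKM in growing deletion oocytes against 70.5 FPKM in growing control oocytes. The region of Npdc1 held further genes above 0. Entpd2, 1.76 kb away, had changes of 0.60 in growing and 0.51 in fully grown oocytes. Abca2, an ABC transporter gene 19.2 kb away, had a change of 1.01 in growing oocytes below the FPKM condition. BC029214, 49.99 kb away and singled out after its values were seen, had changes of 1.05 in growing and 1.11 in fully grown oocytes, also below 5 FPKM.

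Relatives and partners of the 10 genes were read as 10 lists of families and pathways, 145 genes of which 143 were in the table and 69 beside the 10 genes reached 1 FPKM in a library. Only 2 to 4 were past the size condition in each direction and stage, so each share below rests on a few genes. The lists were chosen with earlier results of these data known, so shares above those of all genes are no finding about the relatives. Of the higher ones, Krt79 in growing and Krt71 and C1qtnf5 in fully grown oocytes reached 5 FPKM in the deletion library only. Ccne1 in growing oocytes reached it in both libraries. In growing oocytes 2 were higher and 4 lower of 44 at the FPKM condition, or 4.55% and 9.09%, against 2.62% higher and 2.51% lower among all genes. In fully grown oocytes 2 were higher and 2 lower of 40, or 5.00% each, against 1.08% and 1.09%. The median change of the 69 relatives was 0.19 in growing and 0.06 in fully grown oocytes.

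Krt73 lies in the cluster of type II keratin genes on chromosome 15, and its neighbours in the cluster did not share one direction. Krt79 (101759763 to 101770755) stood at 9.05 FPKM in growing deletion oocytes against 2.30 FPKM in growing control oocytes, a change of 1.61, and at 2.10 FPKM in fully grown deletion oocytes against 0.579 FPKM in fully grown control oocytes. Krt71 (101564380 to 101573528), another inner root sheath keratin, stood at 5.50 FPKM in growing deletion oocytes against 2.72 FPKM in growing control oocytes and at 5.71 FPKM in fully grown deletion oocytes against 1.38 FPKM in fully grown control oocytes, a change of 1.49. Krt72-ps and Krt76, the nearest detected genes on either side of Krt73, were at -0.25 and 0.02 in growing and at -0.90 and -0.65 in fully grown oocytes. Krt84, in the same cluster, had changes of -0.05 and -0.26. Krt12 and Krt10, the listed keratins beside Krt73 with the highest mean level over the 4 libraries, are type I genes on chromosome 11, and Krt12 stood at 36.4 FPKM in growing deletion oocytes against 68.2 FPKM in growing control oocytes. The summed FPKM of 5 epithelial markers, of which Krt5 and Krt7 lie in the same cluster, was also higher with deletion and far below the level of Krt73. It was 2.70 in growing deletion oocytes against 0.917 in growing control oocytes, and 1.74 in fully grown deletion oocytes against 0.722 in fully grown control oocytes. In each deletion library 1 of the 5 markers was at 1 FPKM or more, and in each control library 0 of the 5. Most of the sum was Epcam, at 2.51 FPKM in growing deletion oocytes against 0.819 FPKM in growing control oocytes, and Krt5, Krt14 and Krt19 were listed at 0 in all 4 libraries. The part of such cells in the values of Krt73 was not tested.

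Among paralogs of the 10 genes, Baiap2l1, Gtsf1, Pls1 and Cbfa2t2 differed little between genotypes, and others differed more. Baiap2l1, Gtsf1 and Pls1 were more abundant than their relatives among the 10 in all 4 libraries. Baiap2l1 stood at 86.0 FPKM in growing deletion oocytes against 91.3 FPKM in growing control oocytes, with changes of -0.09 in growing and -0.07 in fully grown oocytes. The I-BAR genes Baiap2 and Mtss1l were at 0.69 and 0.56 in growing and at -0.27 and 0.55 in fully grown oocytes. Gtsf1 stood at 897 FPKM in growing deletion oocytes against 979.7 FPKM in growing control oocytes, with changes of -0.13 and -0.03. Pls1, the plastin of microvilli, had changes of -0.008 and -0.28, and Cbfa2t2, an ETO family corepressor like Cbfa2t3, of -0.005 and -0.19. Lcp1, the plastin of blood cells, was lower in both deletion libraries by less than the size condition, at -0.64 and -0.84. Nr2e1, the closest relative of Nr2e3, was at -0.59 in growing and 0.16 in fully grown oocytes. Of the photoreceptor genes that work with Nr2e3, Crx was at 1.20 FPKM in growing deletion oocytes against 2.30 FPKM in growing control oocytes, and Nrl stayed under 1 FPKM in all 4 libraries. The ROCO relatives of Mfhas1 (Lrrk1, Lrrk2 and Dapk1) were likewise under 1 FPKM in every library.

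Other relatives were past the size condition, several of them lower where the gene they are listed with was higher. Runx1t1, the third ETO family gene beside Cbfa2t3 and Cbfa2t2, was lower at both stages: it stood at 6.07 FPKM in growing deletion oocytes against 14.6 FPKM in growing control oocytes, and at 9.12 FPKM in fully grown deletion oocytes against 19.4 FPKM in fully grown control oocytes. Its changes were -1.14 and -1.01. Mrap, which encodes the accessory protein that takes the ACTH receptor to the cell surface, stood at 19.0 FPKM in growing deletion oocytes against 60.2 FPKM in growing control oocytes, and at 18.2 FPKM in fully grown deletion oocytes against 43.6 FPKM in fully grown control oocytes. Its changes were -1.62 and -1.21, and it and Runx1t1 are among the 24 genes lower at both stages. The ACTH receptor gene Mc2r and the prohormone convertase genes Pcsk1 and Pcsk2, whose products cut the Pomc precursor, were listed at 0 in all 4 libraries. C1qtnf5, of the C1q and TNF family like C1qtnf4, stood at 14.2 FPKM in fully grown deletion oocytes against 4.91 FPKM in fully grown control oocytes, a change of 1.36, and at 0.35 in growing oocytes. C1qb, a complement gene with the same domain, stood at 23.4 FPKM in growing deletion oocytes against 72.1 FPKM in growing control oocytes, and its change in fully grown oocytes was -0.11. Mtss1, an I-BAR gene like Baiap2l2, was at -1.12 in growing and -0.006 in fully grown oocytes. Ccne1, the cyclin E1 gene listed with Npdc1, was at 1.27 in growing and 0.19 in fully grown oocytes, while E2f1 was at 0.25 and 0.43.

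**Figure D4:**
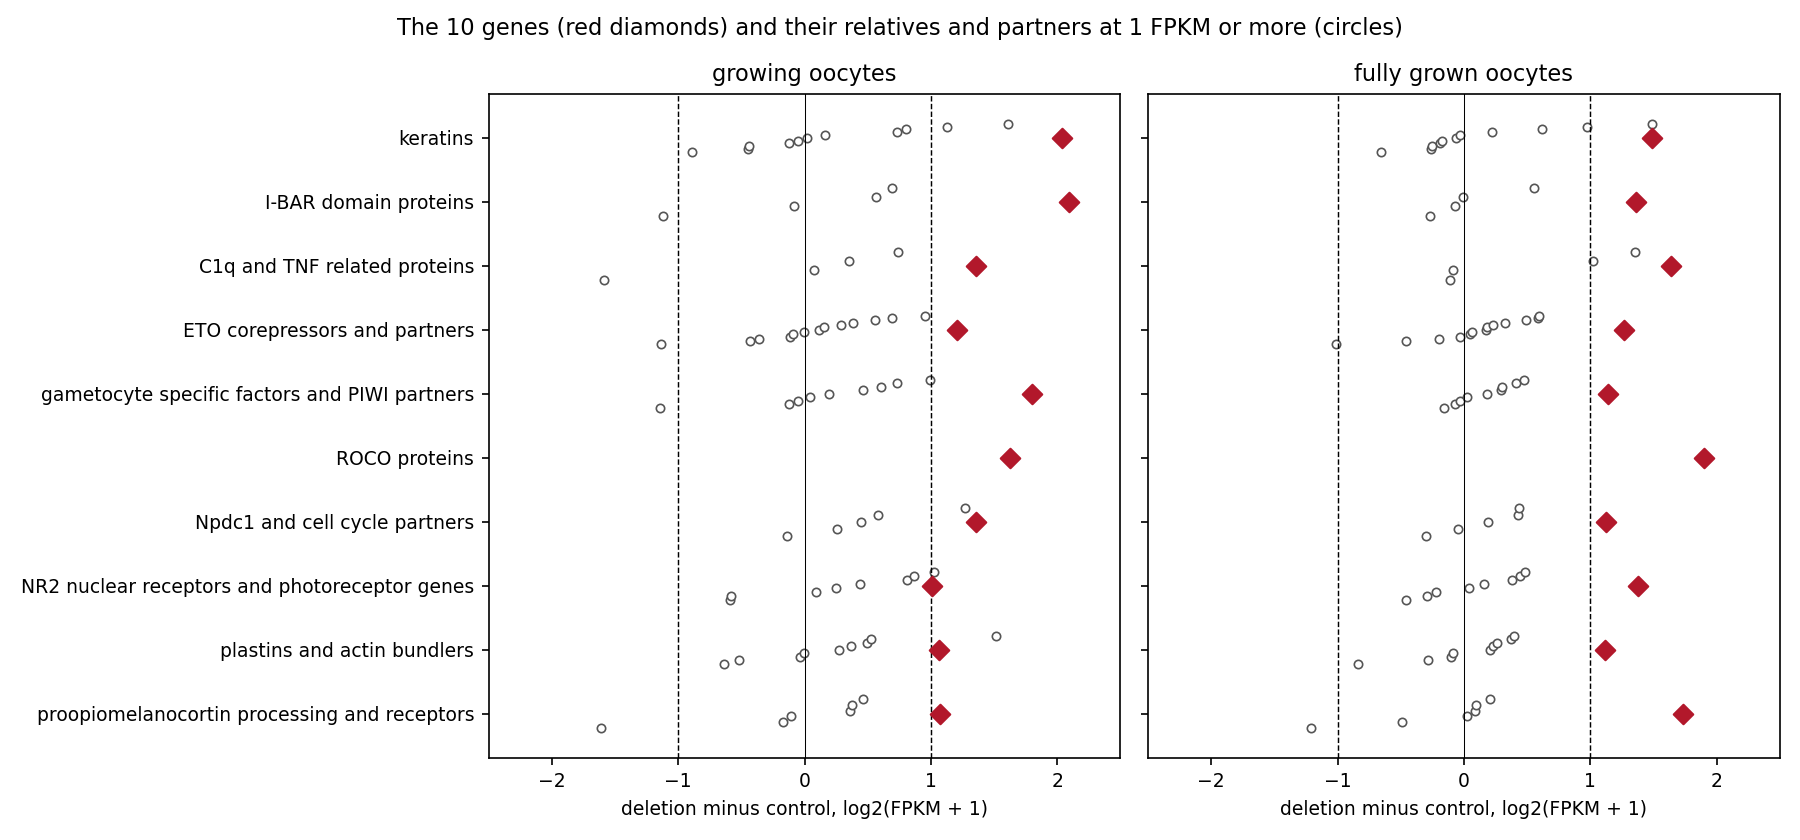
Change in log2(FPKM + 1), deletion minus control, in growing oocytes (left) and fully grown oocytes (right), for the 10 genes (red diamonds) and for their relatives and partners at 1 FPKM or more in a library (circles), 1 line per list and dashed lines at -1 and 1. Most circles lie between the dashed lines, Mrap and Runx1t1 lie at or left of -1 in both panels, and some circles right of 1 are genes below 5 FPKM that the counts leave out.

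GC content moved with the change. The median GC of the transcripts was 57.3% for the 10 genes and 50.2% for all 7119 genes with a value, and 9 of the 10 were above that median. C1qtnf4 was the highest at 70.7%, at percentile 99.9 of all genes, and Pls3 the lowest at 42.4%. The 6 of the other 7 genes higher at both stages that had a value were at a median of 54.4%, and the 24 genes lower at both stages at 45.2%, of which 4 were above the median of all genes. Across genes, which are not replicates, Spearman's correlation of the change with GC content was 0.37 in growing and 0.39 in fully grown oocytes, and GC content is shared by both libraries of a pair. Transcript lengths of the 10 ran from 822 bases in Gtsf1l to 4478.5 in Mfhas1, the median over its transcripts, with a median of 1808 against 1793 for all genes.

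When a smooth trend of the change on GC content and length was subtracted, 5 of the 10 genes stayed at 1 or more at both stages: Krt73, Baiap2l2, Gtsf1l, Mfhas1 and Pls3. Krt73 stood at 1.86 in growing and 1.32 in fully grown oocytes, and Pls3, the one gene below the median GC of all genes, was slightly further up than before, at 1.15 and 1.25. C1qtnf4 went below the threshold in growing oocytes at 0.65, as did Pomc at 0.74 and Nr2e3 at 0.88. Cbfa2t3 was below it at both stages, at 0.86 and 0.89, and so was Npdc1, at 0.97 and 0.83. All 10 stayed above 0 at both stages, with medians of 1.06 in growing and 1.18 in fully grown oocytes. The part of GC content in the values of the 10 genes was not tested beyond this subtraction.

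**Figure D5:**
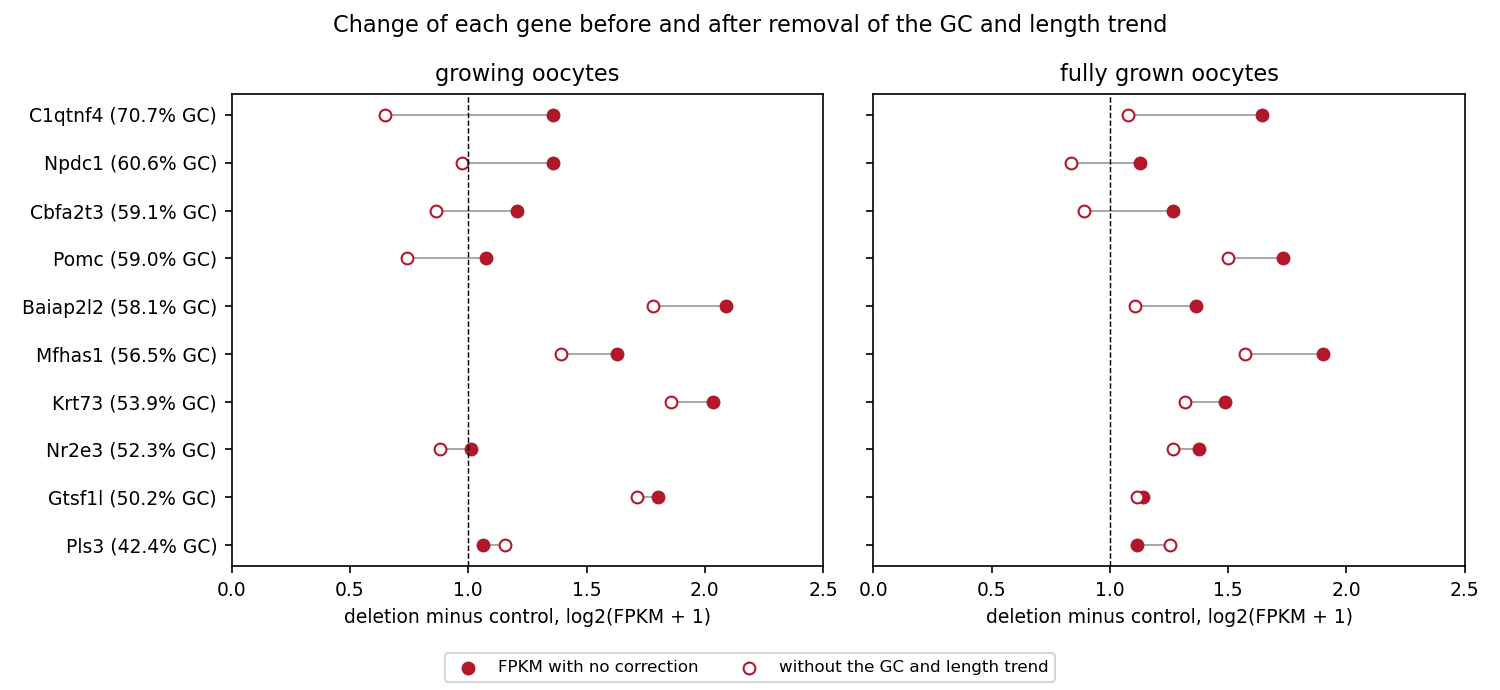
Change in log2(FPKM + 1), deletion minus control, of each of the 10 genes in growing (left) and fully grown oocytes (right), from the FPKM values (filled) and after subtracting the trend on GC content and length (open), with genes ordered by GC content and a dashed line at 1. The open points of C1qtnf4, the gene with the highest GC content, lie furthest from the filled ones, at 0.65 against 1.36 in growing oocytes, and Pls3 moves the other way.

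Other scales changed the count of the 10 genes as well. With a pseudocount of 5 in place of 1, or with a minimum of 20 FPKM, Krt73 was the 1 gene of the 10 still counted at both stages. Without the new pairing of symbols, which is an inference from the values, 1 of the 10 rows met the rule, that of Cbfa2t3, whose row is the same under both pairings. The genes outside the 10 whose profile over the 4 libraries was most like the median profile of the 10 were 2810008D09Rik, Arl2bp and A930015D03Rik, at Euclidean distances of 0.20 each in log2(FPKM + 1) after each gene's mean was subtracted. Each of them met the rule itself and missed the FPKM condition in fully grown oocytes. In growing oocytes 2810008D09Rik and A930015D03Rik missed it too, at 3.38 and 3.45 FPKM in the deletion library, and Arl2bp met it. This likeness rests on the same values that the rule used. Arl2bp stood at 5.85 FPKM in growing deletion oocytes against 1.60 FPKM in growing control oocytes, and at 3.84 FPKM in fully grown deletion oocytes against 1.09 FPKM in fully grown control oocytes. A930015D03Rik overlaps H2-T23 and H2-T24 on the other strand. Likeness over 4 libraries of 1 kind each describes these libraries only.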

How the data were processed

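The deposited values are FPKM for 23235 gene symbols, with 1 column per library, and the 4 per-sample tables were identical to the table of the series. Per the labels' protocols, the authors made cDNA by Smart-seq2 from 10 oocytes per library and built libraries with Tn5 transposase. The build was mm9, and Cufflinks 2.2.1, TopHat2 2.0.11, Bowtie2 2.1.0 and CASAVA 1.8 are listed, per the submitters' processing notes, with no roles. How strand and reads with several matches were treated is not given in the sources used here, so sense and antisense genes, and near-identical copies, cannot be told apart.

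Symbols and values in the deposited table run in different sort orders. Symbols sorted in byte order were therefore paired with the value rows in file order: 4113 rows keep their symbol, 19122 take another, and 9 of the 10 genes moved. The check on these data was the correlation across genes of the log smallest value with log transcript length, which was -0.37 re-paired and -0.16 as deposited for values under 0.3 FPKM. Within 500 rows on each side of a gene, further shifts of up to 3 rows were tried, and no larger ones. None gave a stronger negative correlation for 10 of the 10 genes under 0.3 FPKM and for 9 of the 10 under 0.5 FPKM. Both counts include Mfhas1, around which the correlation was positive, at 0.21 and 0.09, so this check gives no support for its pairing. The 12 oocyte markers had a median of 2399 FPKM re-paired and 16.6 FPKM as deposited. The pairing was not checked with the submitters.

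Changes are differences of log2(FPKM + 1), which are smaller than log2 ratios for low genes. The size condition is a change of at least 1 with 5 FPKM or more in 1 of the 2 libraries. It compares libraries, not conditions, and with 1 library per group no test was possible. GC content and length came from GENCODE vM21 transcripts, matched by symbol or older symbol, and the trend was a loess fit (R 4.3.3, span 0.5, degree 1). Other steps used Python 3.11.15, numpy 2.4.6 and pandas 2.3.3 and were tested on simulated data. The rule for names covered the 10, Dcaf13, the other genes that met the rule, the 5 closest below it, up to 2 relatives per list by mean FPKM plus any past the size condition, neighbours on each side, the 3 most alike profiles and the 3 most abundant markers per list. Not all of these are printed, and other names were chosen after their values were seen. The 10 genes and all lists were chosen with earlier results of these data known. Alternatives were 2 other pseudocounts, median-ratio scaling, the trend subtraction, no minimum, a minimum of 20 FPKM and the symbols as deposited.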

Additional observations from a re-analysis of the deposited data

Results flagged for a closer look

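Among the genes of the lists read here, Inha and C1qb moved in opposite directions in 2 comparisons of the same kind, and with 1 library per group the differences were not tested. Inha, which encodes the inhibin alpha subunit of granulosa cells, was at -1.25 in log2(FPKM + 1) for deletion minus control in growing oocytes and at 0.82 in fully grown oocytes. Fully grown minus growing, it was at 0.92 in deletion and at -1.15 in control oocytes. It stood at 2.16 FPKM in growing deletion oocytes against 6.53 FPKM in growing control oocytes, and at 4.99 FPKM in fully grown deletion oocytes against 2.40 FPKM in fully grown control oocytes. Summed granulosa markers were 18.1 FPKM in growing deletion oocytes against 36.2 FPKM in growing control oocytes, and 31.4 FPKM in fully grown deletion oocytes against 28.9 FPKM in fully grown control oocytes, with Amh and Foxl2 under 1 FPKM in all 4 libraries. Cyp19a1, the most abundant of these markers, stood at 7.75 FPKM in growing deletion oocytes against 17.7 FPKM in growing control oocytes. In fully grown oocytes it stood at 16.8 FPKM in the deletion library and at 19.0 FPKM in the control library. It was thus lower with deletion at both stages, unlike the sum and Inha. The part of granulosa cells in the values of the 10 genes was not tested. C1qb, fully grown minus growing, was at 0.45 in deletion and at -1.02 in control oocytes.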

How the results depend on the processing

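The 17 genes higher at both stages became 26 with a pseudocount of 0.1, 33 with no minimum, 9 without the GC and length trend, 5 with a minimum of 20 FPKM and 2 with a pseudocount of 5. Of the 10 genes, 5 remained counted without the trend, and 1 with a pseudocount of 5, 1 with a minimum of 20 FPKM and 1 with the symbols as deposited. Median-ratio scaling left 8 of the 10 and 12 of all genes, with Nr2e3 at 0.95 and Pls3 at 0.999 in growing oocytes. The median change of the 10 was 0.83 in growing and 0.83 in fully grown oocytes with a pseudocount of 5, and 0.049 and 0.098 with the symbols as deposited, which put other rows in their place. The median of fully grown minus growing in deletion oocytes turned to 0.053 without the trend and to 0.0013 as deposited, and the cause was not tested. Among single genes, median-ratio scaling turned fully grown minus growing for Pls3 in deletion oocytes (0.041) and for Cbfa2t3 in control oocytes (0.033). Without the trend it turned for C1qtnf4 in deletion oocytes (0.23) and for Cbfa2t3 (0.31) and Mfhas1 (0.20) in control oocytes. As deposited, deletion minus control turned for Nr2e3 in growing (-0.21) and for Baiap2l2 (-0.34) and Npdc1 (-0.11) in fully grown oocytes. Fully grown minus growing turned for Krt73 (0.18) and C1qtnf4 (0.34) in deletion oocytes and for Baiap2l2 (0.39), Gtsf1l (0.32) and Pomc (0.056) in control oocytes. In control oocytes none of the 10 reached a minimum of 20 FPKM, so that setting gave no value there. No paired analysis was possible because each group held 1 library, and for the same reason no replicate could be left out. FPKM gives no depth, so the counting error of the values near 1 FPKM is unknown.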
